A study of Mus musculus with 6 samples.

Results

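Cwc22, Apobec3, Nnt, Glo1, Entpd4 and Wdfy1 are 6 of the 24063 gene symbols counted in mouse bone-marrow LSK cells, the fraction sorted as lineage-negative, Sca-1-positive and c-Kit-positive, in which blood stem cells and early progenitors are found. They were chosen as genes known for copy-number or deletion variants between mouse strains, and were selected on their difference between the groups in this series, since gene-level values of this same contrast were known at the time. All 6 had counts and all 6 passed the filter on low counts, which 14145 symbols passed. Since the group difference took part in the choice, gene-level differences of the 6 are given as a description, with no test.

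Expression was profiled by RNA sequencing in 3 libraries labelled Asxl2-/- and 3 control libraries labelled wild type, all of the C57BL/6 strain with no substrain named. According to the methods, loxP sites were placed around exon 11 of Asxl2 in C57BL/6 embryonic stem cells. The carriers were crossed to a germline Flp-deleter line and then to mice with Cre under the Mx1 promoter, which responds to interferon. The titles of both groups name Mx1-cre, and both groups received pIpC, a synthetic double-stranded RNA that switches this promoter on. The strain backgrounds of the Flp and Cre lines, the age of the mice and the parentage of each library are not given in the sources used here, although the methods mention littermates of the floxed line. The comparison asked what loss of Asxl2, a chromatin-associated Polycomb-group protein, changes in LSK cells. For the 6 genes the question is whether the groups also differed at loci that vary between strains.

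Inbred mouse strains differ by duplicated and deleted segments as well as by single bases, and a gene inside such a segment can differ in RNA level between strains without any treatment. Cwc22, a splicing factor that brings Eif4a3 to the spliceosome for the exon junction complex, has been copied to variable number in some strains. Apobec3 encodes a cytidine deaminase that restricts retroviruses, and strains differ in its level and in how often its transcript keeps exon 5. Nnt encodes the proton-driven transhydrogenase of the inner mitochondrial membrane that makes NADPH, and C57BL/6J carries an internal deletion of it that C57BL/6N lacks. Glo1, which clears methylglyoxal, lies in a segment duplicated in several strains. Entpd4 encodes a nucleotide-hydrolysing enzyme of intracellular membranes, and Wdfy1 encodes an endosomal protein with FYVE and WD40 domains that takes part in Toll-like receptor signalling.

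The Apobec3 transcript forms with and without exon 5 are printed because this exon carried the clearest exon-level difference among the 6 genes. The sequences come from the GENCODE vM1 transcripts Apobec3-204 and Apobec3-205, 5′ to 3′. Capitals mark the 99 bases of exon 5, and the 24 lower-case bases on each side belong to the neighbouring exons.
Apobec3 with exon 5: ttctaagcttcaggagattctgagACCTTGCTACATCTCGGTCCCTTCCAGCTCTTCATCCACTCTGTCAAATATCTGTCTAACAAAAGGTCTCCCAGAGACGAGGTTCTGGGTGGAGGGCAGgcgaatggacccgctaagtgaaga
Apobec3 without exon 5: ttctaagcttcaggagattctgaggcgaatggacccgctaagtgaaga
The 99 bases of the exon equal 33 codons in length with no base left over, so both forms keep the same reading frame.

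Library totals ran from 25528540 to 55032075 counts over the transcripts chosen to stand for the genes. Asxl2-/- replicates 1 and 3 and control replicate 2 carried 1 count per RefSeq transcript. Asxl2-/- replicate 2 and control replicates 1 and 3 carried 1 count per exon, which was summed, so that a spliced read can enter once for each exon it touches. Exon 11 of Asxl2, the target, took 28 counts in Asxl2-/- replicate 2 against 457 and 492 in control replicates 1 and 3. In the other 3 libraries the files hold no exon counts, and whole-gene Asxl2 counts were 3533 and 4213 in the knockouts and 3543 in the control. All 9 markers of the LSK gate and stem cells were measured. Of these 7 had a log2 fold change above 0, with a median of 0.42 over the 9. Slamf1 alone passed the test, higher by 1.52 on the log2 scale in the Asxl2-/- libraries (edgeR adjusted p = 0.0196). Over all genes tested 2.34% passed it. Hlf (1.01, SE 0.445), Mecom (0.60, SE 0.317), Procr (0.43, SE 0.293), Cd34 (0.42, SE 0.189), Kit (0.23, SE 0.184) and Ptprc (0.04, SE 0.113) did not pass. Ly6a, which encodes the Sca-1 of the gate, did not pass, and it measured 52.6, 69.1 and 57.6 CPM (counts scaled to a fixed library size) in the Asxl2-/- libraries and 40.5, 260 and 148 CPM in the controls (−1.34, SE 0.562). Flt3 was at −0.34 (SE 0.338). Mature lineage markers summed to 46.0 to 74.6 CPM in Asxl2-/- libraries and 51.1 to 61.8 CPM in controls. The groups differed in sex-linked RNA, since 4 Y-linked genes had at most 2 counts in an Asxl2-/- library and 1026 to 4807 in a control library. Sex and genotype cannot be told apart in this design. Of 10 B-lymphoid markers all had a fold change above 0 in Asxl2-/- libraries and 9 passed the edgeR test as raised, against 2.04% raised over all genes tested, with summed levels of 210 to 249 against 47.5 to 71.5 CPM. No erythroid marker of 10 passed the edgeR threshold, with 5 at an unadjusted p under 0.05 and 2 with a log2 fold change above 0. Summed levels were 412 to 598 CPM in Asxl2-/- libraries against 854 to 1229 in controls. Of this sum Tfrc alone held 255 to 359 against 474 to 732 CPM. The globin genes and Alas2 did not share the drop clearly: Hbb-bt 0.19 (SE 0.497), Hbb-b1 0.05 (SE 0.765), Alas2 −0.07 (SE 0.717) and Hba-a1 −0.29 (SE 0.804). Hba-a2 had the same counts as Hba-a1, so these enter the sum more than once. In sorted bulk samples, fewer cells of a type and less RNA per cell cannot be told apart, and the part of these markers and of sex in the values of the 6 genes was not tested.

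Cwc22 and Apobec3 were lower in all 3 Asxl2-/- libraries and Nnt was higher in all 3, while Glo1, Entpd4 and Wdfy1 differed less. By the edgeR quasi-likelihood test with an adjusted p under 0.05, 2.34% of all genes tested were past the threshold, 2.04% raised and 0.304% lowered. Since the group difference took part in the choice, this threshold was not used to judge the 6. In CPM the groups did not overlap for 4 of the 6 genes, against 24.8% of all genes tested. With the effect of the file kind taken out, they did not overlap for 3 of the 6, against 44.3%. These counts of the 6 genes describe the choice, and nothing is read from them. Fold changes are given as log2 of Asxl2-/- over control from the fit with file kind as covariate, with a standard error (SE) and 3 libraries per group.

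**Figure D1:**
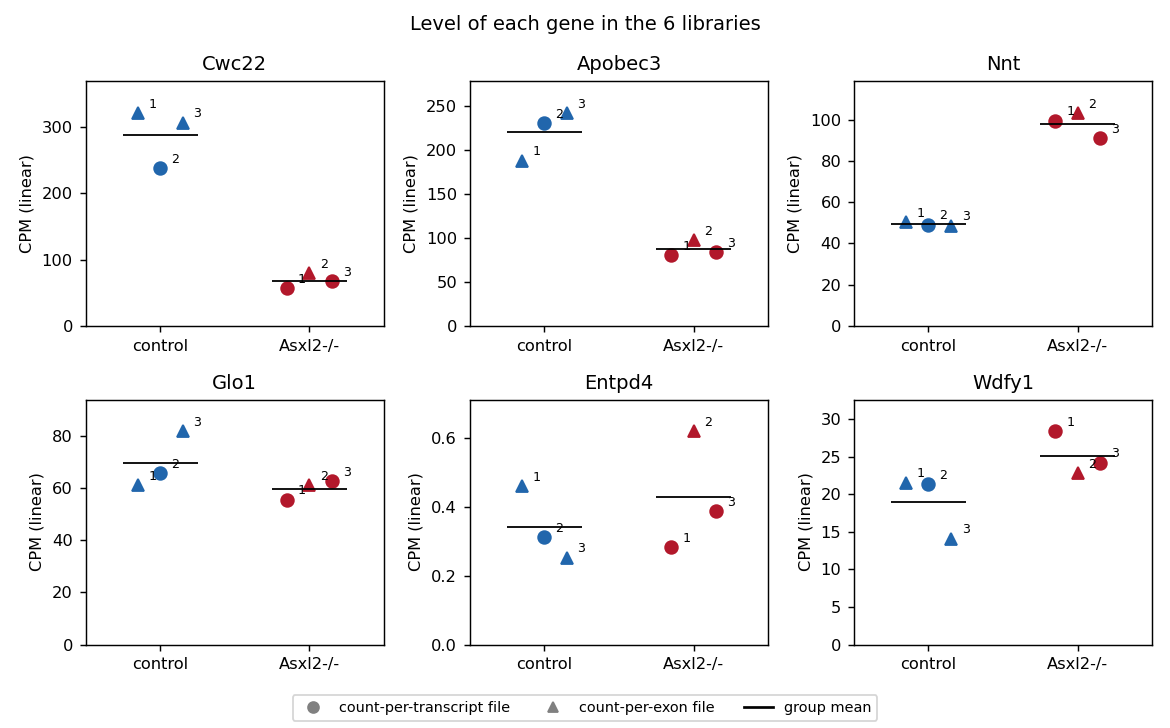
CPM on a linear axis in each of the 6 libraries, 1 panel per gene, with replicate numbers beside the points, circles for count-per-transcript files, triangles for count-per-exon files and a line at the group mean. Control Cwc22 lies between 238 and 320 CPM and Asxl2-/- Cwc22 between 56.9 and 79.2, Nnt runs the other way, and the groups of Glo1 and Entpd4 overlap.

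Cwc22 (NM_030560, 21 exons, chr2:77895653-77946356 on mm10) measured 56.9, 79.2 and 67.6 CPM in Asxl2-/- replicates 1, 2 and 3. Control replicates 1, 2 and 3 measured 320, 238 and 306 CPM. Every control library lay above every Asxl2-/- library, with no overlap. The log2 fold change was −1.96 (SE 0.0995), or 3.88-fold higher in the controls. It was −1.94 among the count-per-transcript files and −1.98 among the count-per-exon files. Of 14145 genes tested, 2.32% had a change at least this large in either direction, and 90% had one under 1.01 on the log2 scale.

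Apobec3 (NM_001160415, 9 exons, chr15:79892408-79908429) measured 80.5, 97.7 and 83.6 CPM in Asxl2-/- replicates 1, 2 and 3. Its control values were 188, 230 and 242 CPM in replicates 1, 2 and 3. Again the groups did not overlap, and control replicate 1 was the lowest control. The log2 fold change was −1.31 (SE 0.136), 2.48-fold higher in the controls. It was −1.49 in the count-per-transcript files and −1.13 in the count-per-exon files. A change at least as large was seen in 6.09% of all genes tested. Exon 1 of Apobec3 (162 of 2459 exon bases, 6.59%) lies within the single exon of D730005E14Rik, and with unstranded libraries reads there cannot be assigned to either. The other members share no exon base with another symbol in the files.

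Nnt (NM_008710, 17 exons, chr13:119334317-119409011) measured 99.6, 103 and 91.2 CPM in Asxl2-/- replicates 1, 2 and 3. The control libraries were close together at 50.4, 49.0 and 48.7 CPM. The log2 fold change was 1.01 (SE 0.0828), 2.01-fold higher in the Asxl2-/- libraries. It was 0.96 in the count-per-transcript files and 1.06 in the count-per-exon files, and 9.90% of all genes tested changed at least as much. Nnt RNA was present in every library of both groups.

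Glo1 (NM_025374, 6 exons, chr17:30592862-30612659) measured 55.5, 61.1 and 62.5 CPM in Asxl2-/- replicates 1 to 3. Control values were 61.1, 65.7 and 81.7 CPM. The groups overlapped, and control replicate 3 was the highest library. The log2 fold change was −0.19 (SE 0.135), a change smaller than that of 59.2% of all genes tested.

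Wdfy1 (NM_001111279, 12 exons, chr1:79702262-79761769) measured 28.4, 22.8 and 24.2 CPM in Asxl2-/- replicates 1 to 3. Controls measured 21.5, 21.4 and 14.1 CPM. The groups did not overlap in CPM but were close, and they overlapped once the file-kind effect was removed. The log2 fold change was 0.33 (SE 0.186), with control replicate 3 the lowest library.

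Entpd4 (NM_026174) was near the limit of measurement. Counts of 8, 33 and 11 were recorded for the knockouts, replicates 1 to 3. Controls had 24, 9 and 12 counts. These are below 1 CPM in every library, from 0.253 to 0.620 CPM, and the groups overlapped. The log2 fold change was 0.49 (SE 0.462). The transcript was placed at 2 positions on chromosome 14, with 13 exons at chr14:69337151-69366742 and 13 at chr14:69555401-69584992. The copies took 17 and 16 counts in Asxl2-/- replicate 2, 14 and 10 in control replicate 1, and 7 and 5 in control replicate 3. Reads that fit both of these near-identical copies could have been split or dropped in the counting, so the level of Entpd4 is uncertain.

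Per kilobase of exon, the order of the 6 genes differed between the groups at its top. Apobec3 had the highest CPM per kilobase in 5 libraries, and Cwc22 exceeded it in control replicate 1 (92.8 against 76.5). In the controls Cwc22 ranked 1 or 2, and in the Asxl2-/- libraries 3 or 4 at 16.5 to 22.9 CPM per kilobase. Nnt, at 19.8 to 22.4 there, was then its neighbour, and in Asxl2-/- replicate 2 the values of 22.9 and 22.4 were closer than the spread of either gene over the group. In the same libraries Apobec3 (32.7 to 39.8) and Glo1 (28.6 to 32.3) were next to each other without overlap. Wdfy1 (3.09 to 6.23) came next and Entpd4 (at most 0.101) last in every library. Summed exon counts raise genes of many exons, so these ranks compare best within a file kind.

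Exon counts exist for 1 Asxl2-/- library and 2 control libraries, and there is no replicate of the knockout at this level. The share of a gene's exon counts that fell in each exon was compared, which sets aside the level of the gene. An exon was called different where its share in Asxl2-/- replicate 2 was at least 2 times as high as in both controls, or at least 2 times as low. It needed at least 20 counts in 1 of the libraries and 100 counts of the gene in each. Of 91 placed exons of the 6 genes 64 passed these minimums, and none of Entpd4 did. One exon was called, Apobec3 exon 5, where over all genes 193 of 116583 exons were called (0.166%, with 0.0935% higher and 0.0721% lower). Between control replicates 1 and 3, 0.618% of exons differed at least 2 times. That share is for 1 pair of libraries, while a call needs the same direction against both controls, so it is not comparable with 0.166%. Intervals below are 95% intervals for counting error only, since PCR duplicates and animal-to-animal spread are not in them.

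Apobec3 exon 5 (chr15:79899020-79899118) took 252 of 5202 counts in Asxl2-/- replicate 2, a share of 4.84% (Wilson 4.29 to 5.46). It took 129 of 9799 in control replicate 1, or 1.32% (1.11 to 1.56). In control replicate 3 it took 181 of 11477, or 1.58% (1.36 to 1.82). The log2 ratio of shares was 1.73 (1.497 to 1.97) against both controls pooled, 1.88 against control replicate 1 and 1.62 against control replicate 3. The ratio of control replicate 1 to control replicate 3 was −0.26, with an interval that holds 0. The other 8 exons of the gene had log2 ratios from −0.14 to 0.10. Among them exon 3 was slightly lower, with an interval below 0 against each control (−0.12 and −0.16). Exon 5 was thus the one exon of Apobec3 with a level above the controls in Asxl2-/- replicate 2, at 4.73 CPM against 2.47 and 3.82, while the other 8 together stood at 93.0 against 185 and 238 CPM. Set against the mean count of exons 4 and 6, it reached 49.9% in the knockout library and 12.6% and 15.4% in the controls, with the exons unequal in length. Of 116583 exons, 49 had a log2 ratio at least as high, exon 5 itself included.

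**Figure D2:**
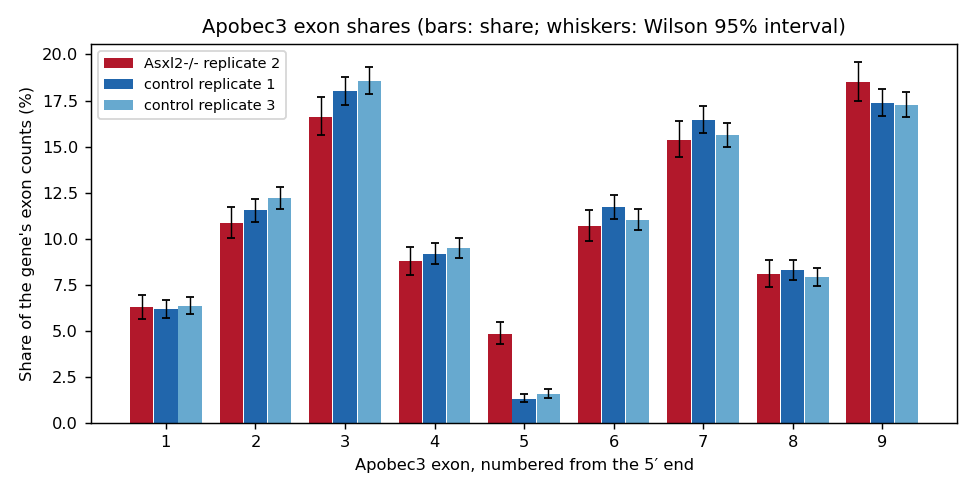
Share of the Apobec3 exon counts in each of its 9 exons, in percent, for Asxl2-/- replicate 2 and control replicates 1 and 3, with Wilson 95% intervals as whiskers. At exon 5 the knockout library stands at 4.84% and the controls at 1.32% and 1.58%, and at the other exons the bars of the 3 libraries are of similar height.

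The count-per-transcript files could not extend this to the other libraries. RefSeq lists Apobec3 with exon 5 (NM_001160415) and without it (NM_030255), and the lines differed by 1 and 3 counts in the knockouts there and by 1 in the control. In the exon files the same difference was 252, 129 and 181 counts. The lines of the transcript files therefore hold almost no information on exon 5. For Glo1, whose lines NM_025374 and NM_001113560 differ more, the difference was 32.0% and 32.7% of the longer line in the knockouts and 30.0% in the control.

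The shares of Cwc22 exons were uneven between the groups along the transcript, although none of its 21 exons was called. The log2 ratio of shares ran from −0.91 (−1.29 to −0.52) at exon 1 to 0.75 (0.15 to 1.35) at exon 2, which rests on 27 counts in the knockout library. Exons 3, 4 and 5 lay at −0.39, −0.44 and −0.30. The last 4 exons lay at 0.43, 0.54, 0.60 and 0.41. Against each control separately, 5 exons had an interval above 0 and 6 had one below 0. Exons 18 to 21 together made 31.0% of Cwc22 counts in Asxl2-/- replicate 2 (29.7 to 32.5), against 22.2% (21.6 to 22.9) in control replicate 1 and 22.3% (21.7 to 23.0) in control replicate 3. This grouping was chosen after the values were seen. As levels, all 21 exons were lower in the knockout library. Exons 18 to 21 were 2.61-fold to 2.98-fold higher in the mean of the controls, exons 1 and 3 to 5 were 4.86-fold to 7.42-fold higher, and exons 6 to 17 were 3.75-fold to 5.06-fold higher.

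The 2 control libraries had nearly the same Cwc22 profile, with log2 ratios from −0.16 to 0.11 and an SD of 0.070 over exons. The SD for the knockout library against the controls was 0.399. Of 4000 genes with at least 10 exons past the minimum and 1000 counts in each exon library, 0.6% had an SD at least as high, and the median was 0.125. Coverage at the transcript ends differed little in general. First exons had a median log2 ratio of −0.07 over 3613 genes, and last exons 0.00 over 3819, where 90% of genes fell between −0.15 and 0.15. The last exon of Cwc22 (0.41) and its first (−0.91) lay outside the range of the middle 90% of genes, which was −0.41 to 0.26 for first exons. These libraries are 1 against 2, so the spread between knockout animals is unknown. The copy number of Cwc22 was not measured here, and reads of near-identical copies cannot be told apart from its own.

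**Figure D3:**
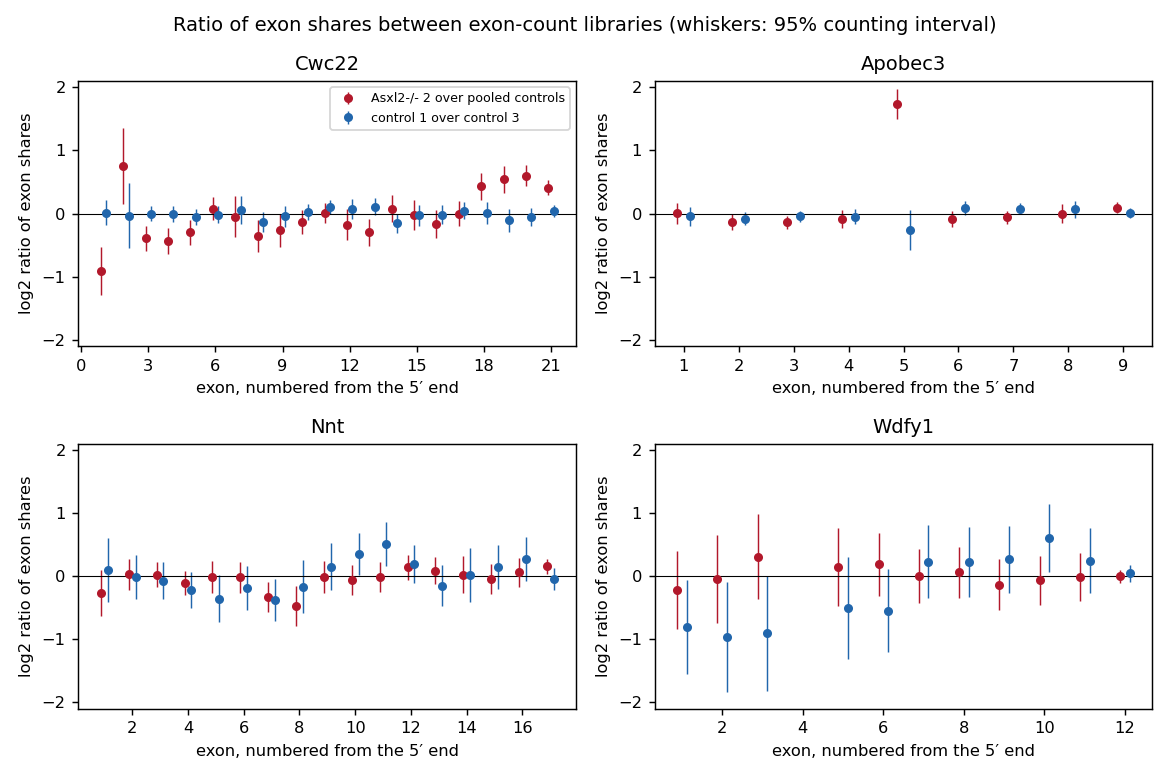
Log2 ratio of exon shares by exon number for Cwc22, Apobec3, Nnt and Wdfy1, in red for Asxl2-/- replicate 2 over the pooled controls and in blue for control replicate 1 over control replicate 3, with 95% counting intervals. The red points of Cwc22 run from −0.91 at exon 1 to between 0.41 and 0.60 at the last 4 exons. Its blue points stay near 0. For Apobec3 the red points stand at 1.73 at exon 5 and between −0.14 and 0.10 at its other exons. In Wdfy1 it is the controls that differ from each other.

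The exons of Nnt differed in the same direction. Each of its 17 listed exons was higher in the knockout library, from 1.504-fold at exon 8 to 2.33-fold at exon 17. Log2 ratios of shares ran from −0.47 to 0.16 with an SD of 0.17, below the SD of 0.24 between the controls, and 27.4% of the 4000 genes had an SD at least as high. Exons 7 and 8 had the lowest ratios, −0.33 and −0.47. The reference assembly was made from C57BL/6J, the substrain with the Nnt deletion, so exons lost in it have no line in the files, and their presence in these libraries was not tested. Glo1 exon ratios stayed between −0.18 and 0.18.

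Wdfy1 varied between the controls. Exons 1 to 6 took 137 of 1122 counts (12.2%) in control replicate 1 and 140 of 667 (20.99%) in control replicate 3, with 196 of 1215 (16.1%) in Asxl2-/- replicate 2 between them. As levels, exons 1 to 6 were at 2.63 and 2.95 CPM in the controls, and exons 7 to 12 at 18.9 and 11.1 CPM. The lower total of control replicate 3 thus lay in exons 7 to 12. In the transcript files the shorter line NM_027057 stood at 60 and 39 counts for the knockouts and 63 for the control, where the longer had 799, 687 and 615.

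Genes next to the 6 were examined because a strain-derived segment would hold neighbours as well. Within 1 Mb of the 6 genes 115 other genes were tested, and 3 passed the edgeR threshold, 1 higher and 2 lower, against 2.34% of all genes. Among these 3, D730005E14Rik overlaps Apobec3 exon 1 and is not an independent neighbour. At an unadjusted p under 0.05 there were 44 of the 115, against 27.7% of all genes. The median log2 fold change of the 115 was 0.054, and that of all genes tested was 0.00052.

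H1f0, a linker histone 862 kb from Apobec3, was raised by 1.56 (SE 0.181, edgeR adjusted p = 0.0206). D730005E14Rik, which overlaps Apobec3 exon 1, was lowered (−1.40, SE 0.176, edgeR adjusted p = 0.0252). It measured 10.01, 7.03 and 9.48 CPM in the knockouts and 13.7, 29.5 and 18.8 in the controls, with no overlap. Its 3607-base exon holds Apobec3 exon 1, so this value is not independent of Apobec3. In Asxl2-/- replicate 2 and control replicates 1 and 3 it had 374, 713 and 890 counts. Apobec3 exon 1 had 326, 603 and 728 there, so most of its counts could be Apobec3 reads. Of the 53 tested neighbours of Apobec3, 23 had an unadjusted p under 0.05, against 27.7% of all genes tested. The other 51 did not pass the edgeR threshold, the nearest to the threshold being Micall1 (0.73, edgeR adjusted p = 0.0518).

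Serpine2, a protease inhibitor 32.6 kb from Wdfy1, was lowered at −1.504 (SE 0.260, edgeR adjusted p = 0.0491). Its CPM was 7.98, 5.75 and 4.58 in the knockouts against 12.3, 22.1 and 14.1 in the controls. Mrpl44 and Dock10, also near Wdfy1, did not pass (−0.20 and −0.17). Cwc22 lies in a gene-poor stretch where 4 neighbours were tested and none passed by edgeR, with none at an unadjusted p under 0.05. The closest tested neighbour was 615 kb away, Sestd1 at 0.30 (SE 0.167), with Ccdc141 at −0.81 (SE 0.359) and Ttn at 0.13 (SE 0.418).

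None of 10 neighbours of Nnt passed by edgeR, 4 having an unadjusted p under 0.05. The smallest p-values belonged to Gm7120 (−0.90, edgeR adjusted p = 0.0831), Zfp131 (−0.32) and Nim1k (1.04). None of 21 neighbours of Glo1 passed, with 6 at an unadjusted p under 0.05, led by Pde9a (1.87, edgeR adjusted p = 0.0561), Wdr4 (−0.43) and Abcg1 (0.68). None of 21 neighbours of Entpd4 passed, with 10 at an unadjusted p under 0.05, led by Sorbs3 (1.72, edgeR adjusted p = 0.0541), Slc39a14 (0.70) and Bmp1 (1.38). With DESeq2 in place of edgeR, 25 of the 115 neighbours passed, 12 higher and 13 lower. Over all genes tested DESeq2 called 2302 of 14145, which is the share to set beside that count.

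**Figure D4:**
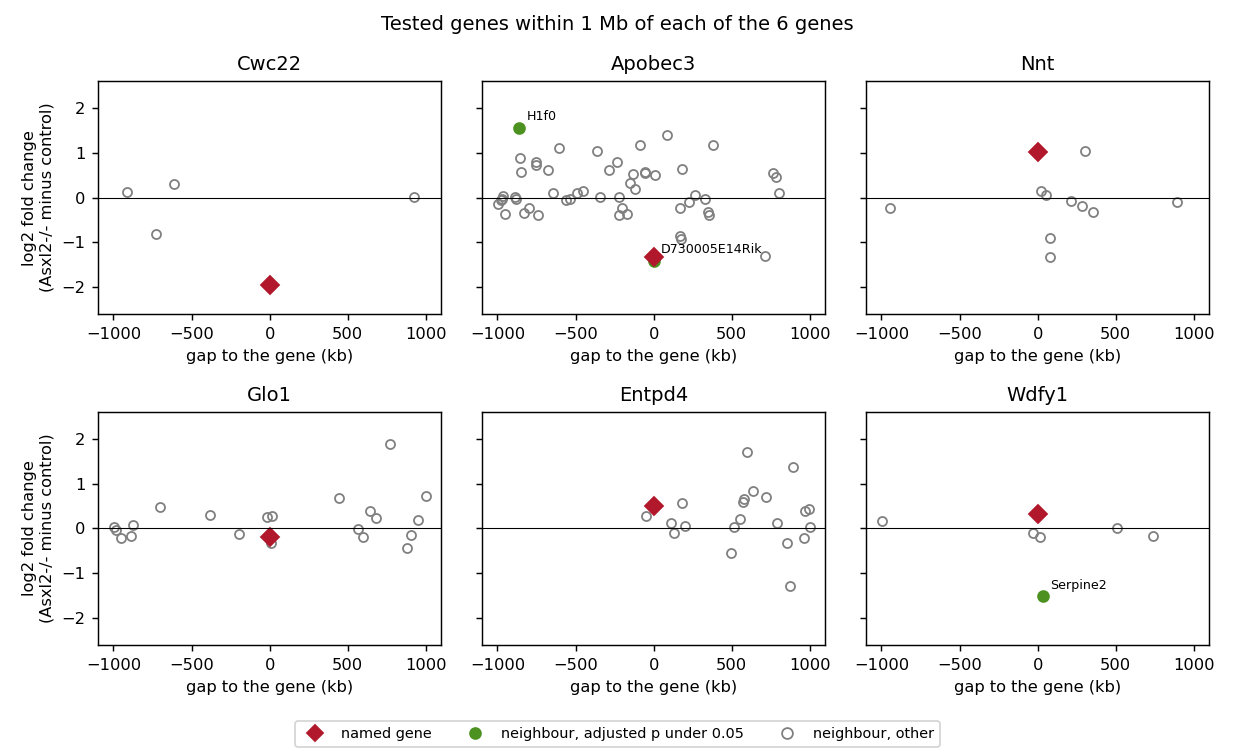
Log2 fold change of Asxl2-/- over control for each tested gene within 1 Mb of the 6 genes, by the gap in kilobases to the gene, with the gene itself as a red diamond at 0. Green points passed an adjusted p of 0.05 (H1f0, D730005E14Rik and Serpine2), and the open points lie on both sides of 0 around each gene.

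Other genes known to vary between strains were listed outside the 6. Of 27 listed, 18 were tested, and none passed the edgeR threshold, which 2.34% of all genes tested did. An unadjusted p under 0.05 was found for 9 of the 18, against 27.7% of all genes tested, and the median log2 fold change was −0.36. Gbp2b, an interferon-induced GTPase with an unequal presence between strains, had the smallest p at −1.84 (SE 0.341, edgeR adjusted p = 0.0532). Its counts were 17, 42 and 26 in the knockouts and 97, 106 and 111 in the controls. Ide, the insulin-degrading enzyme, followed at −0.43 (SE 0.0932, edgeR adjusted p = 0.0679), and its groups did not overlap at 215 to 268 against 299 to 391 CPM. Dnah8 and Btbd9, which lie in the segment duplicated with Glo1 in some strains, were at 0.28 (SE 0.151) and 0.25 (SE 0.0940), both opposite in sign to Glo1 itself.

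The biochemical partners of the 6 genes were also examined. Over the partner and strain-variable lists together, 74 genes were tested and 1 passed by edgeR, against 2.34% of all genes tested. An unadjusted p under 0.05 was found for 25 of them, against 27.7% of all genes, which is the share to set beside each count that follows. DESeq2 called 14 of the 74, 3 higher and 11 lower, where it called 2302 of 14145 over all genes tested. The 1 past the edgeR threshold was Entpd2, a cell-surface ATP-hydrolysing relative of Entpd4, at 3.29 (SE 0.420, edgeR adjusted p = 0.0262). Its counts were 61, 81 and 35 in the knockouts and 7, 6 and 6 in the controls, so it rose from a very low level. Of the exon junction complex and the spliceosomal partners of Cwc22, none of 16 passed by edgeR and 4 had an unadjusted p under 0.05. A log2 fold change below 0 was found for 15 of them, with a median of −0.15. This lean was not particular to them. Over the 74 genes of all these lists only 23 were above 0, with a median of −0.11. The medians were −0.12 for the mitochondrial NADPH list and −0.12 for the methylglyoxal list. Upf1, the helicase of nonsense-mediated decay, was at −0.25 (SE 0.0825), Prpf19 at −0.29 (SE 0.0999), and Eif4a3, the partner of Cwc22, at −0.26 (SE 0.102).

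Apobec1 was the only other cytidine deaminase tested of 4 listed, at −0.07 (SE 0.112). Among 14 tested genes listed for mitochondrial NADPH and peroxide metabolism, Sod2 included, none passed by edgeR and 6 had an unadjusted p under 0.05. Thioredoxin 2, Txn2, was at −0.49 (SE 0.101, edgeR adjusted p = 0.0648) and peroxiredoxin 3, Prdx3, at −0.46 (SE 0.111, edgeR adjusted p = 0.0801), both opposite in sign to Nnt. Idh2, another source of mitochondrial NADPH, was at 0.07 (SE 0.140). None of 8 genes listed around methylglyoxal passed, with 3 at an unadjusted p under 0.05, led by Park7 (−0.32) and Aldh2 (0.32). That list also holds Tpi1 and Ager, which do not themselves remove methylglyoxal. Of the 10 genes related to Wdfy1 or to its receptor route none passed, and 1 had an unadjusted p under 0.05, Tlr3 at −1.16 (SE 0.458), whose control values of 15.8, 60.1 and 14.0 CPM varied widely. Wdfy2 was at 0.36 (SE 0.157).

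The genes whose pattern over the 6 libraries was most like each of the 3 with a change of at least 1 on the log2 scale were found by the Euclidean distance between log2 CPM centred on each gene's mean, with file kind removed. For Cwc22 these were Atp8b1 (0.391), Ltbp1 (0.458) and Fgd6 (0.502), all at greater distances than for the other 2 genes. Atp8b1 was measured at a very low level, 0.18 to 0.43 CPM in Asxl2-/- libraries and 0.73 to 1.63 in controls. Ltbp1 was also low, at 0.67 to 0.88 against 2.43 to 5.26 CPM. For Apobec3 the genes most alike were D730005E14Rik (0.157), Oaf (0.174) and Rgs10 (0.236), the first of which shares its exon 1. For Nnt they were Ypel2 (0.0761), Fam219a (0.109) and Slc36a4 (0.109). Apart from D730005E14Rik, none lay on the chromosome of the gene it resembled.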

How the data were processed

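Counts were deposited by the authors as whole numbers of reads, per RefSeq transcript in 3 libraries (33068 lines) and per exon in 3 others (317548 lines), on mm10 with replicates not pooled. The submitters' processing notes name STAR, featureCounts and DESeq2, and their versions are not given in the sources used here. Libraries were poly(A)-selected and unstranded. The Cuffdiff test of the study needs alignments, which were not used here. No other columns held per-sample values. The methods speak of 3 biological replicates in each group, and every pair of libraries differed by more than sampling noise.

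Each symbol was represented by its longest transcript, and exon counts were summed. Total counts per library ranged from 25528540 to 55032075, and a count of 0 would allow up to 3 counts. Counts were tested with edgeR 4.0.16 in R 4.3.3 (glmQLFit, glmQLFTest, TMM, filterByExpr) with file kind plus group, 3 residual degrees of freedom, two-sided p-values and Benjamini-Hochberg adjustment over 14145 genes at 0.05. CPM used TMM-scaled library sizes, and log2 CPM a prior count of 0.5. On simulated counts for this comparison (14046 genes), the test found 98 of 100 genes changed by 1 and 100 of 100 changed by 2 on the log2 scale, and called 8 of 13846 unchanged genes. The simulation gave every gene the same dispersion and changed only genes of higher mean count. It therefore checks that the code works and does not give the share of real changes found here. Exons were numbered from the 5′ end with strand from GENCODE vM1, whose genome is not mm10, so no sequence was read by coordinates. Intervals on shares are Wilson 95% intervals, and intervals on ratios of shares come from a normal approximation to the counts.

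The members, gene lists and tests were chosen with earlier results of these data known. Named were the 6 genes, up to 3 neighbours within 1 Mb of each by smallest p and every neighbour past the threshold, list genes past it or else the 2 with the smallest p in a list, and the 3 genes most like each member whose log2 fold change was 1 or more in size. Dnah8, Btbd9, Eif4a3 and Idh2 were named besides for their roles, after their values were seen. The comparisons of exon spread, of transcript ends and of the parts of Cwc22 and Wdfy1 were also chosen after the data were seen. Alternatives used DESeq2 1.42.0, limma 3.58.1 (voom), other scalings, filters and covariates, another transcript per gene, a replicate block, each file kind alone, and leaving out each library.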

Additional observations from a re-analysis of the deposited data

How the results depend on the processing

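Cwc22, Apobec3 and Nnt kept their direction under every alternative run, and no value of the 6 genes changed sign. Cwc22 moved to −1.86 with library size only and to −2.08 without the file kind. Apobec3 moved to −1.49 in the transcript files and −1.13 in the exon files, Entpd4 to 0.083 in the transcript files, and Nnt to 1.11 with library size only. Leaving out each library gave −2.05 to −1.92 for Cwc22, −1.49 to −1.13 for Apobec3, 0.96 to 1.06 for Nnt, −0.27 to −0.088 for Glo1, 0.10 to 0.79 for Entpd4 and 0.21 to 0.47 for Wdfy1. Entpd4 had no value with at least 10 counts required in every library. The Apobec3 exon 5 ratio ranged from 1.62 to 1.88 over single controls. With neighbouring exons as denominator 2 exons differed from both controls, Cwc22 exon 2 (1.25 and 1.21) and Apobec3 exon 5 (1.98 and 1.71). Pooling the controls, chosen after seeing the data, left 1 exon with all exons as denominator and 2 with neighbouring exons.

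Counts of genes past the threshold depended strongly on the setting. In place of 331 genes (288 higher), DESeq2 called 2302 (1174 higher), which moved the split of directions, and library size only 161 (142 higher). Leaving out a library gave 9 to 1312 genes: 16 without Asxl2-/- replicate 1, 659 without replicate 2 and 96 without replicate 3, and 1312, 124 and 9 without control replicates 1, 2 and 3. Neighbours past it were 25 with DESeq2, 5 with limma-voom and 0 to 16 without 1 library, with 0 where Asxl2-/- replicate 1 or 3 or control replicate 3 was left out, 1 without control replicate 2, 7 without Asxl2-/- replicate 2 and 16 without control replicate 1. Partner and strain-variable genes past it were 14 with DESeq2 and 0 to 10 without 1 library, with 10 without control replicate 1, 6 without Asxl2-/- replicate 2 and 0 without any of the other 4. Requiring 10 counts in every library also called 1 of them, and it was lowered, so it was not Entpd2. The cause of these shifts was not tested.

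Deviations from the group means did not correlate in all same-numbered pairs (0.31, 0.046 and 0.0083 for numbers 1, 2 and 3), and the labels tie no number to a litter or day, so the numbers were not taken as pairs. With file kind also removed the correlations were 0.63, 1 and 0.38. That of 1 is set by construction, since each replicate 2 is the only library of its group in its file kind, and the same constraint ties the other libraries, so these values were not used to decide. Whether the libraries are paired cannot be told from them. Before file kind was removed, the unlike pair of Asxl2-/- replicate 2 and control replicate 3 reached 0.20. With the replicate block and file kind, which leaves 1 residual degree of freedom, 5179 genes passed (2767 higher), 49 neighbours and 36 partner and strain-variable genes. With the replicate block without file kind these were 380, 2 and 1, and Cwc22 was at −2.09.

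Exon-level values rest on 1 knockout library, and depth limits Entpd4, at 33 counts or fewer.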
